A study of Mus musculus with 2 samples.

Results

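The dual-specificity MAPK phosphatases examined here are 10 genes of the Dusp family (Dusp1, Dusp2, Dusp4, Dusp5, Dusp6, Dusp7, Dusp8, Dusp10, Dusp14 and Dusp16), out of 22555 gene symbols that could be assigned to the array. They were taken by gene name, and each of their 13 probes is described, where 7 genes had 1 probe and 3 genes (Dusp7, Dusp8 and Dusp16) had 2. Long-term hematopoietic stem cells (LT-HSCs), the self-renewing cells at the top of the blood hierarchy, were sorted from the bone marrow of 2-year-old C57BL/6J mice and profiled on 1 single-color Agilent array per genotype. The array labelled p38KO came from CAG-CreERT2 mice with floxed p38α (gene symbol Mapk14) that received tamoxifen at approximately 1 year of age (50 to 60 weeks) and were analyzed 1 year later. The WT array came from age-matched mice with the same floxed alleles that carried no Cre and also received tamoxifen. The comparison asks which transcripts differ in aged LT-HSCs after late loss of p38α.

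CAG is a ubiquitously active promoter, so the deletion in this model is not restricted to stem cells. The sources describe the sort gate differently (CD150+CD48-Flt3-CD34- LSK on the samples, CD34-Flt3- LSK in the design text, with CD41 added in the methods), and do not state how many mice contributed to each array. With 1 array per genotype there is no replicate spread and no test is possible. Each difference below is therefore a comparison of these arrays, given beside the spread over all genes and the scanner error, which is the scanner software's error of each spot carried over to the difference. Probe coordinates are those of the array files (mm9), and whether a probe lies in a coding or an untranslated exon was not given in the sources used here. A probe is said to clear background where that software marks it as well above background.

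MAP kinases (ERK, JNK and p38) are switched on by phosphorylation of a threonine and a tyrosine in their activation loop, and the dual-specificity phosphatases switch them off by removing both phosphates. Several of these phosphatases are themselves transcribed in response to MAP kinase activity, which makes them negative feedback regulators. In stress signaling, p38 acts through the kinases MSK1 and MSK2 on CREB, the factor that binds the cyclic AMP response element (CRE), and Dusp1 is a known target of that route.

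None of the 9 Dusp genes that could be measured differed by 2-fold in either direction, where 6.62% of all genes were lower and 4.11% higher by as much, so that with 9 genes a count of 0 lies near the background. Levels of 6 genes read higher on the array labelled p38KO (Dusp8, Dusp4, Dusp14, Dusp7, Dusp6 and, within the scanner error, Dusp1), and levels of 3 read lower (Dusp16, Dusp2 and Dusp10). The phosphatase with the largest upward difference was Dusp8, 1.97-fold higher from a dim signal, and by each gene's brightest probe the largest downward difference was that of Dusp16, 1.59-fold lower. Dusp7 had no settled direction, because its brighter probe read 1.31-fold higher and its other probe 1.97-fold lower.

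Sequences are shown for those genes on which these statements turn. The first set holds the 250 bases before the transcript start (RefSeq, GRCm38.p6, 5′ to 3′ on the gene's own strand) for Dusp8, with the largest upward difference, Dusp16, with the largest downward difference by brightest probe, and Dusp1, the known target of the CREB route. Capitals mark the CRE core, TGACG or its reverse complement, which forms the full CRE, TGACGTCA, where it appears on both strands.
Dusp8 (chr7:142095285-142095534, minus strand): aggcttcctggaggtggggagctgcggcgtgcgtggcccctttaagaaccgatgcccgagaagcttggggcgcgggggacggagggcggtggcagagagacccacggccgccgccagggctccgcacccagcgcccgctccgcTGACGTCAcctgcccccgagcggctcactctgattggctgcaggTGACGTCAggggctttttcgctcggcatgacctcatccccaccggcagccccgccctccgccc
Dusp16 (chr6:134792629-134792878, minus strand): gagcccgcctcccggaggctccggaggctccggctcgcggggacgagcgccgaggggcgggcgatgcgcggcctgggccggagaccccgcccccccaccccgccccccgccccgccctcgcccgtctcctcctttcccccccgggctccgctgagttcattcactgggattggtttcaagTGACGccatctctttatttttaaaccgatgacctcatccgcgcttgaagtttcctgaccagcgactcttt
Dusp1 (chr17:26508473-26508722, minus strand): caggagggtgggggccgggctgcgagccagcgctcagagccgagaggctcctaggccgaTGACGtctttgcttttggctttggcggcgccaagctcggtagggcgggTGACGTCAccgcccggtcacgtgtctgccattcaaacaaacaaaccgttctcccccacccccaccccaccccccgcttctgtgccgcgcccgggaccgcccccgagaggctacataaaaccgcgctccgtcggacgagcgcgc
Such windows were found for 9 of the 10 genes, all but Dusp4. The full CRE was present in the windows of 2 of these 9 genes, against 1.55% of 32851 RefSeq windows of the same length searched on both strands. In Dusp8 it occurred from 107 to 100 and from 63 to 56 bases before the start, and in Dusp1 from 143 to 136. The CRE core alone was found in 4 of the 9 (Dusp1, Dusp5, Dusp8 and Dusp16), against 17.8% of all windows, and every full CRE also counts here. G and C made up 56.4% to 77.2% of the bases in these 9 windows, and the RefSeq windows were not matched for base content. These matches describe the letters of the window only, and whether they bear on the differences between the arrays was not tested.

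Other motifs linked to stress and growth signaling were spread over different genes. No window held the AP-1 motif TGANTCA, which 6.75% of all windows contained. The E-box CACGTG was in the windows of Dusp1 and Dusp2, against 6.02% of all windows. The Ets motif CCGGAA was in that of Dusp14, against 12% of all windows, and the CArG box, bound by serum response factor, was in that of Dusp5, against 1.47%. A loose NF-κB form (GGG, then any 5 bases, then CC) was in 7 of the 9, but 45.8% of all windows held it.

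The second set of sequences shows the Dusp7 probes. The file's mm9 coordinates place the clone probe (designed on the cDNA clone BC025048) at chr9:106277943-106278000 and the RefSeq probe (designed on NM_153459) at chr9:106277985-106278044, both on the plus strand, so that they share their ends. Shown are the last 30 bases of the clone probe and the first 30 bases of the RefSeq probe, with their longest shared run of 15 bases in capitals.
Dusp7 clone probe: gacacacacacacatACACATATATATCCC
Dusp7 RefSeq probe: cACACATATATATCCCgagccagcaacggg
Of the 60 bases of the clone probe, 34 lay in dinucleotide repeats of at least 4 units, and as many repeat bases were found in 0.0359% of the 55681 probe sequences on the array. The RefSeq probe had 8 such bases, as many as 2.33% of probe sequences, and the other probes of these 10 genes had 0.

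The array labels were checked first on the targeted gene, Mapk14, which encodes p38α. One Mapk14 probe read 2.34 on the WT array and 2.31 on the array labelled p38KO, and the other read 2.08 and 2.03, all as log2 signal minus that array's 75th percentile. These differences of −0.04 and −0.05 were smaller than the scanner error of 0.20, so the array labelled p38KO did not show less Mapk14 signal beyond that error. Which exons were deleted is not given in the sources used here, and it is unknown whether a Mapk14 probe falls inside them. The array is therefore named by its label throughout.

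Across the series, signals were well above background for 67.9% of probes on the WT array and 69.0% on the array labelled p38KO, with 0 saturated spots, and 17198 genes were measured on at least 1 array. Marker lists of several cell types differed between the arrays. Of 14 LT-HSC genes, 13 were lower on the array labelled p38KO, beside 52.4% of all genes, and 2 were at least 2-fold lower, beside 6.62%. The median difference of the 14 was −0.64, and their summed level was 178 times the 75th percentile on the WT array and 139 times on the other. Kit, the brightest of them on the WT array, differed by −0.09. Mecom had the largest fall, −1.44, but its other 2 probes differed by −0.10 and 0.61. Ctnnal1 differed by −0.41 and its other probe by 0.53, and Mllt3 by −0.83 and its other probe by −0.19. Of 10 myeloid genes 8 were higher, 6 of them at least 2-fold, beside 4.11% of all genes, and 1 was at least 2-fold lower, beside 6.62% (median 1.1, summed level 218 and 298). Their differences ran from −1.41 for Elane to 2.23 for Ltf, with the brightest, Itgam and Csf1r, at 0.42 and 0.21. Itgam made up most of the summed level on each array, and its other 2 probes differed by −0.42 and 0.88. The other Csf1r probe on both arrays differed by 0.76. All 8 B cell genes were higher (median 0.59, summed level 6.32 and 21.6), with Cd74 at 0.18 and Jchain at 3.75. Jchain made up most of the summed level on the array labelled p38KO, and Ms4a1 and Ebf1 cleared background only on that array. Of the 8 measured T and NK cell genes 6 were higher (median 0.59, summed level 19.4 and 24). Nkg7 differed by 0.32 and Cd4 by 0.74, but their other probes by −0.04 and −0.01. The 2 lower genes were Zap70, at −4.43 with −0.03 on its other probe, and Klrd1, at least 1.21-fold lower and above background on the WT array only. Cd3d and Cd3g cleared background on neither array. Of 6 measured erythroid genes, 4 were higher (Tfrc 0.46, Epor 0.27) and 2 lower, the globin genes Hbb-bt at −1.10 and Hba-a1 at −0.57, with a median of 0.26 and a summed level of 6.37 and 7.54. The 6 megakaryocyte genes split into 3 lower (Pf4 0.00, Vwf −0.55) and 3 higher (up to 0.51 for Ppbp), with a median of 0.19 and a summed level of 48.6 and 42.4. The other Vwf probe differed by −1.26, and Gp1bb differed by 0.39, with −0.91 and 0.004 on its other probes. The part of these shifts in the Dusp values was not tested, and fewer cells of a type cannot be told apart from less RNA per cell.

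Nuclear, stimulus-induced phosphatases, which are transcribed within minutes of MAP kinase activation and act on kinases in the nucleus, are Dusp1, Dusp2, Dusp4 and Dusp5. Dusp1 acts on p38 and JNK as well as ERK and is the best known brake on p38 in inflammation. Its processed signal was 8185 on the WT array and 7161 on the array labelled p38KO, which became 5.83 and 5.96 after scaling to each array's 75th percentile. The difference of 0.12 was within the scanner error of 0.20, so no difference in Dusp1 was resolved, and it lay within the middle 50% of the 222 genes within 0.5 log2 units of its level (−0.25 to 0.28). The file places only 11 bases of its probe on the genome, at chr17:26642526-26642536 on the minus strand.

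Dusp2, a phosphatase first studied in activated lymphocytes and myeloid cells that acts on ERK and p38 (probe at chr2:127163930-127163989, plus strand), read 5.03 on the WT array and 4.63 on the array labelled p38KO. The difference of −0.40, 1.31-fold lower with a scanner error of 0.20, was matched or exceeded in that direction by 23.9% of all genes, and lay below the middle 50% of the genes near its level (−0.31 to 0.14). Dusp4, an inducible nuclear phosphatase of ERK and JNK (probe at chr8:35882045-35882104, plus strand), read −1.53 and −1.04. It was 1.41-fold higher on the array labelled p38KO (0.49, scanner error 0.21), and 16.4% of all genes were at least as high. Dusp4 lay above the middle 50% of the genes near its level (−0.48 to 0.36). Dusp5, which is specific for ERK and holds it in the nucleus (probe at chr19:53615682-53615741, plus strand), did not clear background on any array (processed signals 1.43 and 2.00). Without a signal above background, no fold is given for it. Within the inducible nuclear class, the 3 measured members thus lay on both sides of 0, with Dusp2 lower and Dusp4 higher.

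**Figure D1:**
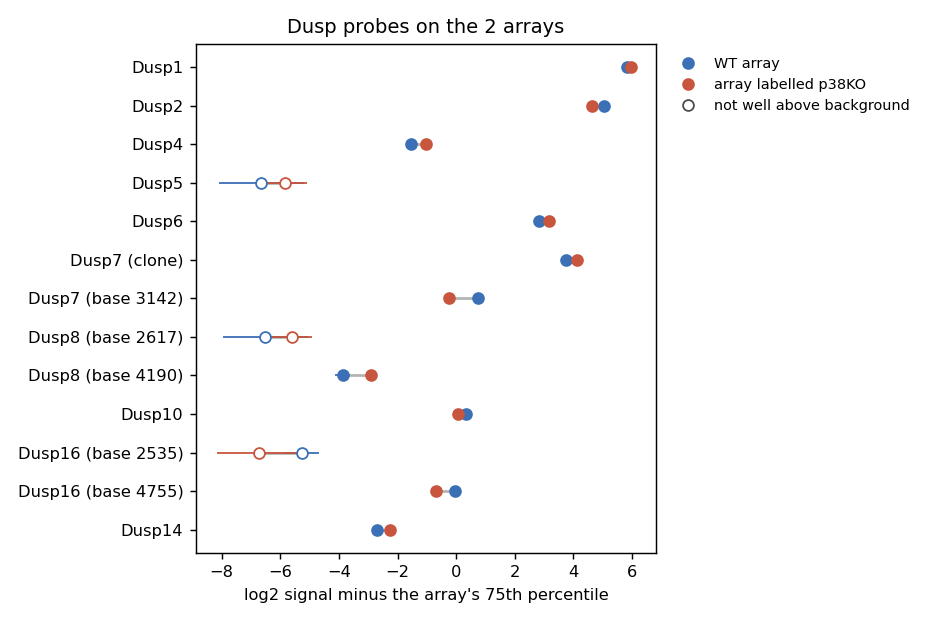
Every Dusp probe on both arrays, as log2 processed signal minus the array's 75th percentile (x axis), with bars for the scanner's error where they exceed the symbol. Open circles mark the 3 probes not well above background (Dusp5, Dusp8 at base 2617 and Dusp16 at base 2535). Among the filled pairs the widest gaps are 0.98 for Dusp8 (base 4190) and −0.98 for the RefSeq probe of Dusp7 (base 3142).

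Cytoplasmic phosphatases with a preference for ERK are Dusp6 and Dusp7, both members of the negative feedback on growth factor signaling. Dusp6 (probe at chr10:98729985-98730044, plus strand) gave almost the same processed signal on each array, 1029 and 1028, and read 2.84 on the WT array and 3.16 on the array labelled p38KO after scaling. The scaled difference was 0.32 (1.25-fold, scanner error 0.20), and it was 0.39 with quantile and 0.40 with loess normalization. The 75th percentile was 7.16 on the log2 scale on the WT array and 6.85 on the other, so scaling adds the same amount to the difference of every gene, also to those of Dusp4 (processed signals 49.5 and 56.0), Dusp14 (21.9 and 24.3) and the Dusp7 clone probe (1925 and 2022). A difference at least as high was found for 25.6% of all genes, but among the 1093 genes within 0.5 log2 units of its level the middle 50% ran from −0.33 to 0.12, below Dusp6.

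The Dusp7 values depended on the probe. The clone probe, which was the brighter and so stands for the gene under the rule used here, read 3.75 on the WT array and 4.14 on the array labelled p38KO, a difference of 0.39 or 1.31-fold higher. The RefSeq probe read 0.74 and −0.23, a difference of −0.98 or 1.97-fold lower. On each array both probes cleared background, and both differences exceeded their scanner error of 0.20. The RefSeq probe lies at base 3142 of the transcript and has 8 repeat bases, against 34 in the clone probe. Among the 700 genes within 0.5 log2 units of the level of the clone probe, the middle 50% of differences ran from −0.30 to 0.13. A mean over the probes gave −0.29, and whether the repeats take part in the clone probe's signal was not tested.

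Phosphatases that act mainly on JNK and p38 are Dusp8, Dusp10 and Dusp16. Dusp8, an inducible member best known from brain and heart, was read by its probe at base 4190 (chr7:149265961-149266020, mm9) at −3.87 on the WT array and −2.89 on the array labelled p38KO. The processed signals behind these levels were 9.77 and 15.5, near the floor of −4.65 and −4.72 below which no probe was well above background. The difference of 0.98, 1.97-fold higher, was more than 3 times its scanner error of 0.31, and 4.33% of all genes were at least as high. Among the 1809 genes within 0.5 log2 units of its level, however, 9.51% were at least 2-fold higher and the middle 50% ran from −0.47 to 0.57. The other Dusp8 probe, at base 2617, cleared background on neither array (processed signals 1.58 and 2.38), so the higher level rests on 1 dim probe.

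Dusp10, which dephosphorylates JNK and p38 in both nucleus and cytoplasm (probe at chr1:185898608-185898667, plus strand), read 0.33 on the WT array and 0.06 on the array labelled p38KO. Its difference of −0.27 (1.20-fold lower, scanner error 0.20) was one that 32.3% of all genes matched or exceeded, within the middle 50% of the genes near its level (−0.37 to 0.28). Dusp16, a JNK phosphatase that also binds p38 and is known in macrophages and T cells, read −0.03 and −0.70 with its probe at base 4755 (chr6:134665783-134665842, mm9). This was 1.59-fold lower (−0.67, scanner error 0.21), and 12.6% of all genes were as low. The middle 50% of the genes near its level ran from −0.41 to 0.31, above Dusp16. Its second probe, at base 2535, cleared background on neither array (processed signals 3.75 and 1.1). Dusp10 and Dusp16 were thus lower and Dusp8 higher, so the class had no common direction.

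Dusp14 is an atypical, small phosphatase that lacks the kinase-binding domain of the others and is known as a negative regulator of T cell receptor signaling. Its probe, at chr11:83861916-83861975 on the minus strand, read −2.71 on the WT array and −2.24 on the array labelled p38KO. The difference of 0.47 was 1.38-fold higher with a scanner error of 0.24, and 17.6% of all genes were at least as high. Near its level the middle 50% of genes ran from −0.43 to 0.46, with Dusp14 at the upper edge.

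**Figure D2:**
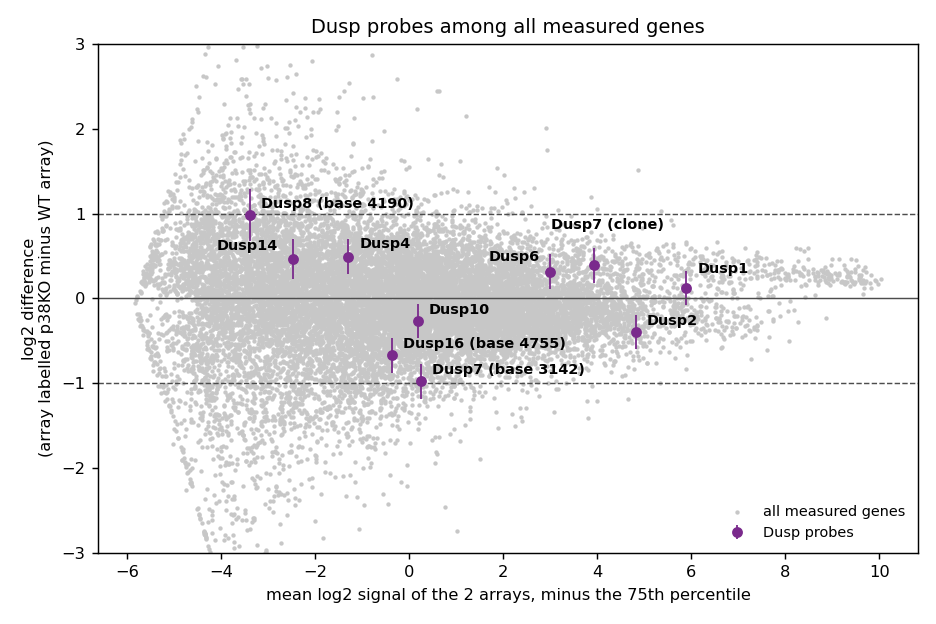
Log2 difference between the arrays (array labelled p38KO minus WT array, y axis) against mean log2 level relative to the 75th percentile (x axis), for all 17198 measured genes (gray) and the 10 Dusp probes well above background on both arrays (purple, bars show the scanner error of the difference). No Dusp probe passes the dashed 2-fold lines, with Dusp8 and the RefSeq probe of Dusp7 next to them; 103 genes lie outside the axis, and the diagonal edges at low level are genes held at the floor on 1 array.

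Taken over the family, 0 of the 9 measured genes were lower by 2-fold or more, beside 6.62% of all genes (1138 of 17198), and 0 were higher by as much, beside 4.11% (706). The median difference of the 9 genes was 0.32, with quartiles of −0.27 and 0.47, beside a median of −0.03 and quartiles of −0.38 and 0.33 over all genes, of which 52.4% were lower. That median fell to 0.12 when the RefSeq probe of Dusp7 took the place of the clone probe. Of the 10 probes well above background on both arrays, 9 differed by more than their scanner error and 4 by more than 2 times it: Dusp4, Dusp8, Dusp16 and the RefSeq probe of Dusp7. The share of all probes past their scanner error was not computed, so these counts have no background beside them. A different measure of error is the spread between repeated spots (SD 0.13 for a difference). Only 19.7% of all genes differed by less than that spread, so differences past it were common on these arrays. The scanner error and that spread both leave out the variation between mice, sorts and labelings.

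**Figure D3:**
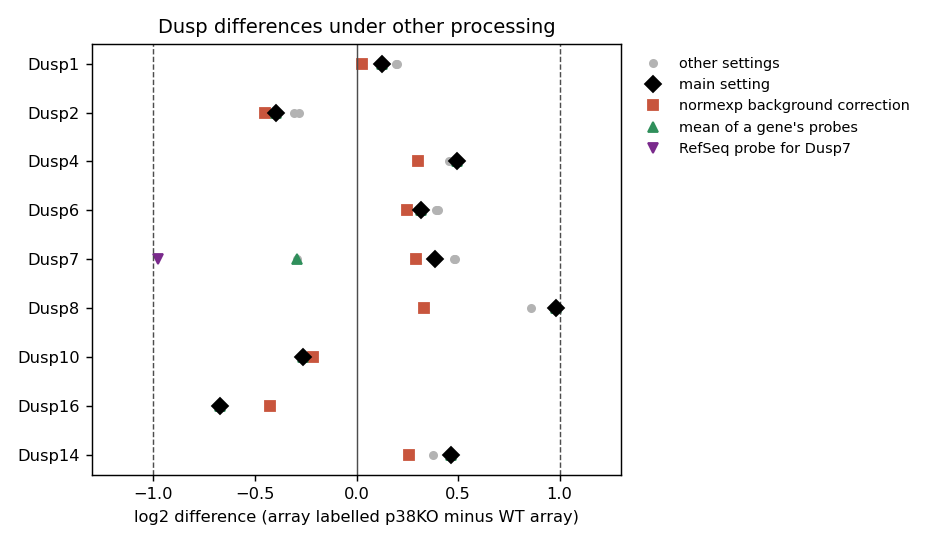
Log2 difference (x axis, array labelled p38KO minus WT array) of each measured Dusp gene under the main processing (black diamonds) and its alternatives, with dashed lines at 2-fold. The directions of 8 genes are kept under every alternative, while Dusp7 moves from 0.39 to −0.29 with the mean of its probes and to −0.98 with the RefSeq probe, and Dusp8 shrinks from 0.98 to 0.33 with normexp background correction.

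Size of the differences depended on background correction for the dim genes. With normexp correction, which models background and adds an offset, Dusp8 differed by 0.33, Dusp4 by 0.30, Dusp14 by 0.26 and Dusp16 by −0.43. The RefSeq probe of Dusp7 still read lower, by −0.70. That correction compresses low signals in general, and left 0.727% of all genes lower by 2-fold or more and 0.285% higher by as much. Dusp1, the gene with the smallest difference in the main processing, moved between 0.03 and 0.20 over all alternatives.

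The other Dusp genes, which include atypical phosphatases and pseudophosphatases, gave a reference within the same family. Of 15 listed, 14 were measured: 9 were lower and 5 higher, with a median of −0.11 that turned to 0.016 with normexp correction. Past 2-fold was 1 gene, Dusp22, on the higher side, beside 4.11% of all genes. Dusp22, a phosphatase that restrains T cell signaling, was 4.58-fold higher on the array labelled p38KO (−3.41 and −1.21, a difference of 2.20), against at most 1.97-fold among the 9 measured genes described above. That value rests on 1 of its 3 probes, with a dim signal on the WT array, and no other Dusp22 probe cleared background on both arrays. Dusp9, a cytoplasmic ERK phosphatase, was higher by 0.81 from a dim signal, and the pseudophosphatase Styx by 0.42, with 0.11 on its other probe. The lowest were Dusp19 at −0.66, the RNA phosphatase Dusp11 at −0.56 and Dusp13 at −0.39. Dusp26 was well above background on the WT array only and at least 1.47-fold lower on the other.

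Phosphatases of other families also dephosphorylate MAP kinases, as tyrosine phosphatases of the Ptpn group or serine and threonine phosphatases of the Ppm1 and PP2A groups. All 9 listed were measured, 5 lower and 4 higher, and their median was −0.09. Ppp2r1a, the scaffold of PP2A, differed by −0.55, Ppm1a by −0.51 and Ppm1b by −0.46. The tyrosine phosphatases Ptpn5 and Ptpn7 were higher by 0.28 and 0.15, and Ppm1d, a p53 target that acts on p38, by 0.06. Ptprr cleared background only on the array labelled p38KO and was at least 1.45-fold higher there.

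The substrates of the phosphatases, the MAP kinases themselves, had a median of 0.16, with 3 of 9 measured genes lower and 6 higher. The p38γ gene Mapk12 read −0.66 on the WT array and −2.72 on the other, 4.17-fold lower, and Mapk3, encoding ERK1, was lower by 0.85, although its other probe differed by 0.16 in the opposite direction. Mapk13 (p38δ) was higher by 0.70, Mapk8 (JNK1) by 0.58 and by 1.05 on its other probe above background, and Mapk7 (ERK5) by 0.36. The kinases that activate them, the MAP2 kinases, were lower in 6 of 7 cases, with a median of −0.33 that moved to −0.19 with normexp correction. Past 2-fold were 0 of them, beside 6.62% of all genes lower and 4.11% higher by as much. Map2k2, an activator of ERK, differed by −0.62 and by −1.16 on its other probe, Map2k4, an activator of JNK and p38, by −0.39, and Map2k3, an activator of p38, by −0.39. Map2k6, the other main p38 activator, was the exception at 0.09.

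Genes of the ERK feedback group, transcribed in response to ERK like Dusp4 and Dusp6, were also mixed. Of 13 listed, 11 were measured, 6 lower and 5 higher, with a median of −0.12 that moved to 0.014 with normexp correction. Spry2, an inhibitor of growth factor signaling, was higher by 0.50 and the Ets factors Etv5 and Etv4 by 0.42 and 0.32. Ccnd1, which drives entry into the cell cycle, differed by −0.53, Phlda1 by −0.29 and Spry1 by −0.27. Il17rd, an inhibitor of fibroblast growth factor signaling, cleared background only on the array labelled p38KO, where it read at least 7.38-fold higher.

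Of 18 immediate early genes, the stimulus-induced class to which Dusp1, Dusp2 and Dusp5 belong, 13 were lower and 5 higher, beside 52.4% of all genes lower. Their median was −0.30 and moved to −0.058 with normexp correction. Past 2-fold were 2 genes, both lower (Ier3 and, by a bound only, Fosl1), beside 6.62% of all genes. Ier3, an early response gene linked to survival, was 3.52-fold lower, and the AP-1 genes Jun and Junb differed by −0.86 and −0.77. Egr2, Fosb and Klf4 were higher by 0.57, 0.54 and 0.51. Fosl1 was well above background on the WT array only and at least 3.75-fold lower on the other. Set beside this list, Dusp2 at −0.40 lay below its median and Dusp1 at 0.12 above it.

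**Figure D4:**
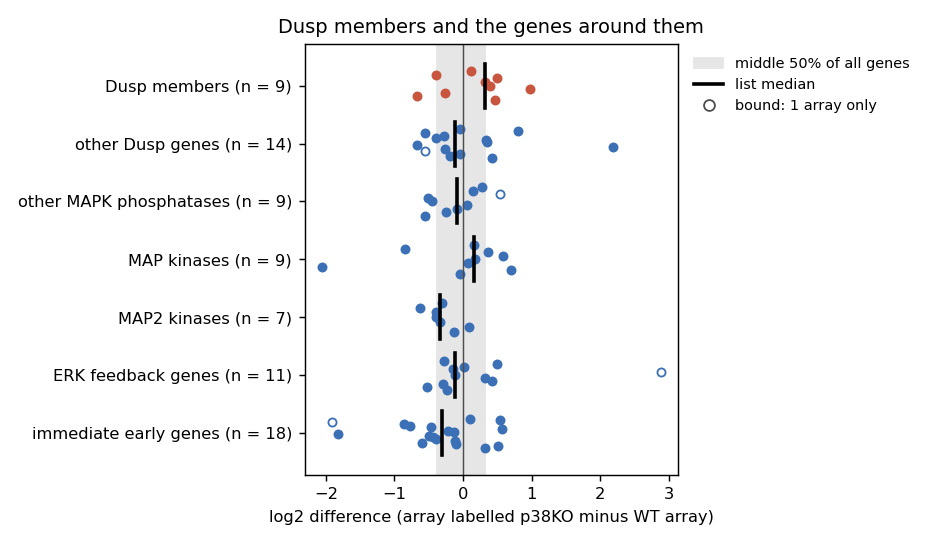
Log2 difference (x axis, array labelled p38KO minus WT array) of the 9 measured Dusp genes (orange) and of the genes in 6 pathway lists (blue), with black bars at each list's median and the middle 50% of all genes shaded. Open circles are bounds for genes well above background on 1 array only. The Dusp genes lie between −0.67 and 0.98, within the pooled range of the 6 lists, although none of those lists alone spans both values.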

How the data were processed

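RNA from sorted LT-HSCs was hybridized to 1 single-color Agilent mouse array per genotype (probe coordinates in mm9), and RNA extraction, labeling and normalization were outsourced by the authors. The deposited scanner files hold background-subtracted spot intensities from Agilent Feature Extraction 11.5.1.1, and both arrays came from the same slide. The deposited table of log2 values holds 35795 probes, all well above background on both arrays, and equals log2 intensity minus a constant (7.16 and 6.84). Its medians were −0.79 and −0.79, and its direction and scale matched the scanner values.

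Here, log2 intensities were scaled to each array's 75th percentile over non-control probes. Control spots and spots flagged as outliers were left out (19 probes lost), and spots of one probe were averaged. Of 55662 probes, 57.1% received a symbol through RefSeq. The brightest probe well above background on at least 1 array stood for a gene, and dimmer signals were set to the lowest signal that cleared background on their array (−4.65 and −4.72), which gives an "at least" fold. Scanner errors were propagated from the error column of the files, and the number of arrays limits precision. No columns of other samples were present.

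Members and gene lists were chosen with earlier results of these data known. All members and Mapk14 are named with every probe, up to 3 genes with the largest fall and rise from each pathway list among those well above background on both arrays, and the 2 brightest markers per cell type on the WT array, except 1 that is not reported here. Genes with a bound only (Dusp26, Ptprr, Il17rd, Fosl1, Ms4a1, Ebf1 and Klrd1) were named after their values were seen. The same holds for the markers Mecom, Ctnnal1, Mllt3, Elane, Ltf, Hbb-bt, Hba-a1, Ppbp, Gp1bb and Zap70. Alternatives were quantile, median and loess normalization (span 0.3), normexp correction (offset 50), the authors' values, other probe filters and probe summaries. Python 3.11.15 (numpy 2.4.6, pandas 2.3.3), R 4.3.3 and limma 3.58.1 were used, and the gene summary was tested on simulated data.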

Additional observations from a re-analysis of the deposited data

How the results depend on the processing

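The counts of Dusp genes past 2-fold were 0 lower and 0 higher under every alternative run. The median Dusp difference of 0.32 moved to 0.12 with the mean or the median of a gene's probes, and also to 0.12 with the RefSeq probe for Dusp7, an alternative chosen after seeing the data. Dusp7 itself reversed from 0.39 to −0.29 with the mean or median of its probes and to −0.98 with the RefSeq probe. The other 8 measured Dusp genes kept their direction under all alternatives. With normexp correction, list medians moved from −0.33 to −0.19 for the MAP2 kinases, from −0.12 to 0.014 for the ERK feedback genes and from −0.30 to −0.058 for the immediate early genes. The median of the other Dusp genes went from −0.11 to 0.016, a change no larger than the SD of a difference between repeated spots (0.1313). With the mean of probes, the median of the other MAPK phosphatases moved from −0.09 to 0.062. The cause was not tested beyond the construction of these alternatives. Dim probes limit what can be said of Dusp5 and of the second probes of Dusp8 and Dusp16. With 1 array per genotype, no replicate could be left out. No paired analysis was possible because each genotype has 1 array and no test.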
